A study of Homo sapiens with 4 samples.

Results

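Death receptors are cell-surface proteins of the tumour necrosis factor (TNF) receptor family that pass a killing signal into the cell when a ligand binds. Transcripts of 10 human genes of this route were examined: the receptors TNFRSF10A, TNFRSF10B, TNFRSF10D, TNFRSF21 and FAS, the adaptors FADD and TRADD, the kinase RIPK1, the initiator caspase CASP8 and its inhibitor CFLAR. Members were all probes that the platform annotation assigned to 1 of these symbols. They came to 15 of the 47231 probes on the array and covered 9 of the 10 genes, of 20046 genes named in all; RIPK1 was not analysed here. LNCaP cells, a prostate cancer line from a human lymph node metastasis that responds to androgen, were kept in medium with 10% fetal bovine serum. Both groups carried a transfected small RNA at 50 nM for 48 h, miR-31 in one and the control miR-NC in the other, and total RNA was profiled. Each group had 2 Illumina bead arrays, and the labels do not say whether repeats were separate cultures, so p-values measure a spread between arrays that may be technical. The comparison asks which messenger RNAs differ when miR-31 is raised.

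In the extrinsic route of apoptosis, ligands such as TRAIL or FAS ligand gather their receptors, whose intracellular death domains recruit FADD. FADD in turn brings CASP8 molecules together so that they activate each other and then cut executioner caspases. CFLAR resembles CASP8 without its protease activity and competes for the same platform. TRADD and RIPK1 serve the related TNF receptor complex, which can lead to NF-kappaB signalling or to death. A microRNA binds messenger RNAs mainly through its seed, bases 2 to 8, and lowers their level or translation. The seed is in capitals in the mature RefSeq sequence below (MIR31, chr9:21512158-21512178, minus strand, GRCh38.p14). It is shown because it is the agent compared; the labels name no arm, and the 5p arm is the one listed in the RefSeq table used here.
hsa-miR-31-5p: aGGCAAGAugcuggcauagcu
No transcript sequences were used here, so matches to this seed in the 9 genes were not examined.

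The mature microRNA was not read by the arrays, and the probe for its precursor gene MIR31 was not detected on any of them (detection p 0.468 to 0.696). The arrays detected 34.6% to 40.7% of probes, where detected means a detection p under 0.05, the chance that a background bead is as bright. The lowest signal of a detected probe was 82.6 to 105.6 intensity units, depending on the array. Of the LNCaP markers, 7 of 8 with a probe were detected on all 4 arrays, KLK3 among them at 122.2 to 203.4 units, and KRT18 on 1 array. Their summed intensity before normalization was 11520.2 to 17046 in miR-NC and 8080.5 to 11815.7 in miR-31. The median intensity of all probes before normalization was also lower in miR-31, at 82.5 and 74.6 units against 92.5 and 86.4 in miR-NC. The marker sums were not corrected for such differences between arrays, and they overlapped between the groups. A loss of markers was not tested with them. TMPRSS2, a protease, was the 1 marker past the threshold (log2 change −0.72 ± 0.14, SE; limma adjusted p = 0.0191). KLK2, another protease, had a log2 change of about the same size that did not pass (−0.71 ± 0.24, SE; limma adjusted p = 0.114), also without overlap of the groups. These were the largest falls among the 7 tested markers, of which 5 had a negative and 2 a positive change (median −0.23). The KLK3 change was smaller, with overlap of the groups (−0.23 ± 0.36, SE; limma adjusted p = 0.773). Of 11 markers of basal, stromal, endothelial and blood cells, 6 were detected on no array and 4 on 1 array each (at the brightest probe of a gene). Their summed intensity, likewise before normalization, was 1676.6 to 1879 in miR-NC and 914.9 to 952.3 in miR-31. Without VWF it was 808.6 to 824.3 and 699.6 to 747.9, a sum of signals mostly at background. VWF, an endothelial glycoprotein, was detected on all 4 arrays and fell 4.61-fold in miR-31 (log2 change −2.20 ± 0.21, SE; limma adjusted p = 0.00153). PECAM1, the other endothelial marker, was detected on no array. The part of these markers in the results was not tested, and in such bulk RNA fewer cells of a type and less RNA per cell cannot be told apart.

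Of the 15 probes, 9 passed the filter on dim signals (detection p under 0.05 on at least 2 of the 4 arrays), and these read 8 of the 9 genes. The receptors TNFRSF10B and TNFRSF21 rose by about the same factor in miR-31 cells, 1.62-fold and 1.63-fold. No other probe passed the threshold, an adjusted p of 0.05 in limma after Benjamini-Hochberg adjustment over all 18354 probes tested. CFLAR had the largest absolute change among the 9 probes, 1.68-fold lower in miR-31, and did not pass. CASP8 was read by 4 probes and detected by none of them on any array. Thus 2 of 9 tested member probes (22.2%) were past the threshold and higher, where 2.1% of all tested probes were, and 0 of 9 were lower, against 4.07% of all probes (6.17% in either direction). At an unadjusted p under 0.05 there were 4 of 9, against 22.1% of all probes. The median log2 change was 0.20 over the 9 probes and −0.01 over all tested probes. The groups did not overlap at 6 of the 9 probes, 4 higher and 2 lower, or 66.7%, where 51.5% of all tested probes did not overlap (24% higher, 27.6% lower). This count depended on the scaling: 3 of the 9 were apart with arrays aligned on their medians (2 higher, 1 lower) and 3 in the deposited intensities (1 higher, 2 lower). TNFRSF10B contributes 2 of the 9 probes, and the probes share the same 4 arrays, so they are not independent. The members were also chosen with earlier results of these data known, so the shares are a description and not a test.

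**Figure D1:**
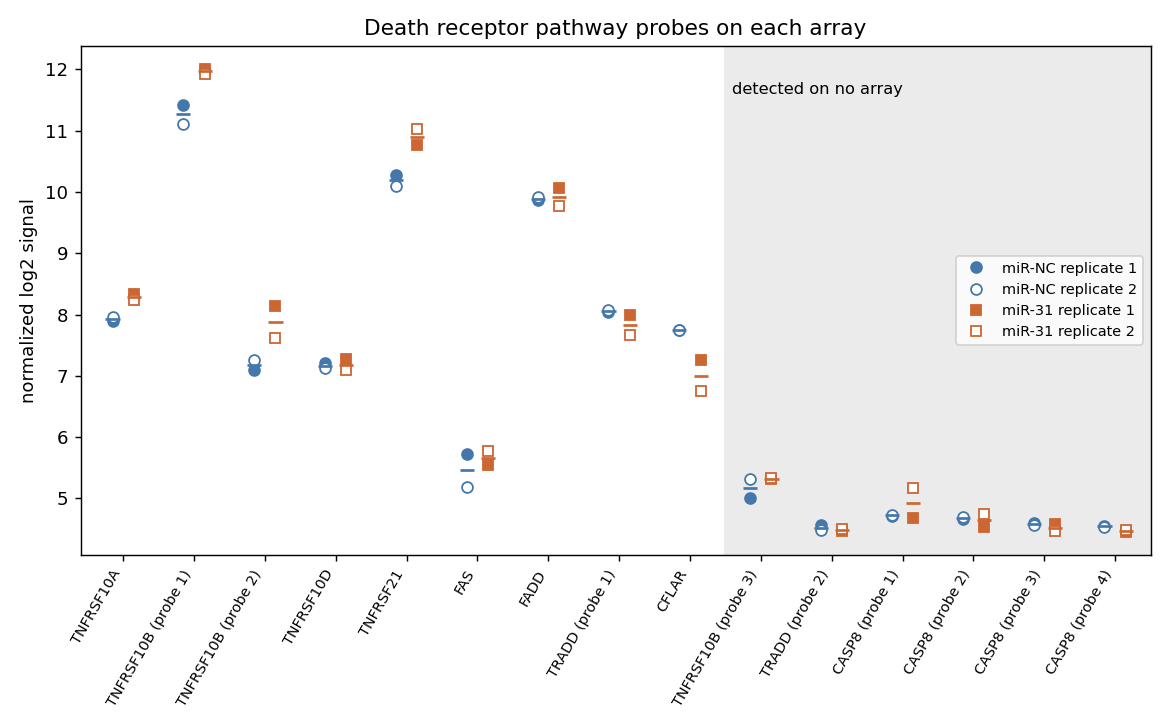
Normalized log2 signal (vertical axis) of the 15 member probes on each of the 4 arrays, with short lines at the group means of 2 arrays; the grey area holds the 6 probes that no array detected. Both miR-31 arrays lie above both miR-NC arrays for TNFRSF10A, probes 1 and 2 of TNFRSF10B and TNFRSF21, and below them for CFLAR and probe 1 of TRADD.

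TNFRSF10B encodes a death-domain receptor for TRAIL and is a known transcriptional target of p53. Its brightest probe (ILMN_1699265) showed deposited intensities of 3540.9 and 2074.6 with miR-NC (replicates 1 and 2, the order used throughout) against 3469.7 and 4017.5 with miR-31. Before normalization miR-NC replicate 1 was thus brighter than miR-31 replicate 1, and the groups overlapped. After normalization the control arrays stood at 11.42 and 11.11 on the log2 scale and the miR-31 arrays at 12.00 and 11.92, so both miR-31 arrays were the higher. The log2 change was 0.70 ± 0.15 (SE, 2 arrays per group; limma adjusted p = 0.0286), with an unadjusted 95% interval from 0.36 to 1.03. As a fold the interval runs from 1.28 to 2.05. In the authors' deposited normalized intensities the same probe read 2430.5 and 1966.3 in miR-NC against 3622.6 and 3456.9 in miR-31.

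A second TNFRSF10B probe (ILMN_2331010) had the same size of change with a wider error. The control arrays read 225.4 and 201.5 deposited intensity units and the miR-31 arrays 261.7 and 258.9, so the miR-31 arrays were higher already before normalization. The normalized log2 signals were 7.09 and 7.26 against 8.13 and 7.62. The log2 change of 0.70 ± 0.25 (SE) did not pass (limma adjusted p = 0.144). The third probe (ILMN_1812915) read 81.8 to 93.1 intensity units over the 4 arrays and was not detected on any of them, with detection p from 0.0584 to 0.327.

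TNFRSF21 encodes another receptor with a death domain, best known for work on neurons and lymphocytes. Its probe (ILMN_1699695) had deposited intensities of 1682.7 and 1054.9 with miR-NC and of 1396 and 2164.8 with miR-31. These overlap, since miR-NC replicate 1 was brighter than miR-31 replicate 1. Normalized log2 signals did not overlap, at 10.28 and 10.10 with miR-NC and 10.76 and 11.03 with miR-31. The log2 change was 0.71 ± 0.16 (SE, 2 arrays per group; limma adjusted p = 0.0369), with an unadjusted 95% interval from 0.34 to 1.07. In the authors' normalized intensities the probe read 1094.1 and 949.4 in miR-NC against 1537.1 and 1840.7 in miR-31.

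Both calls, like those of every other probe on the array, were lost when either miR-31 array was left out: the log2 change of TNFRSF10B was then 0.64 without replicate 1 and 0.74 without replicate 2 (limma adjusted p = 0.197 and 0.185), and that of TNFRSF21 0.83 and 0.57 (0.12 and 0.25). In these fits the lone miR-31 array was assumed to vary like the control arrays. They were also lost with the arrays aligned on their medians in place of quantile normalization (log2 changes 0.67 and 0.60, limma adjusted p = 0.974 and 1), where the groups overlapped for TNFRSF21, and without the variance trend of limma (adjusted p = 0.139 and 0.137).

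**Figure D2:**
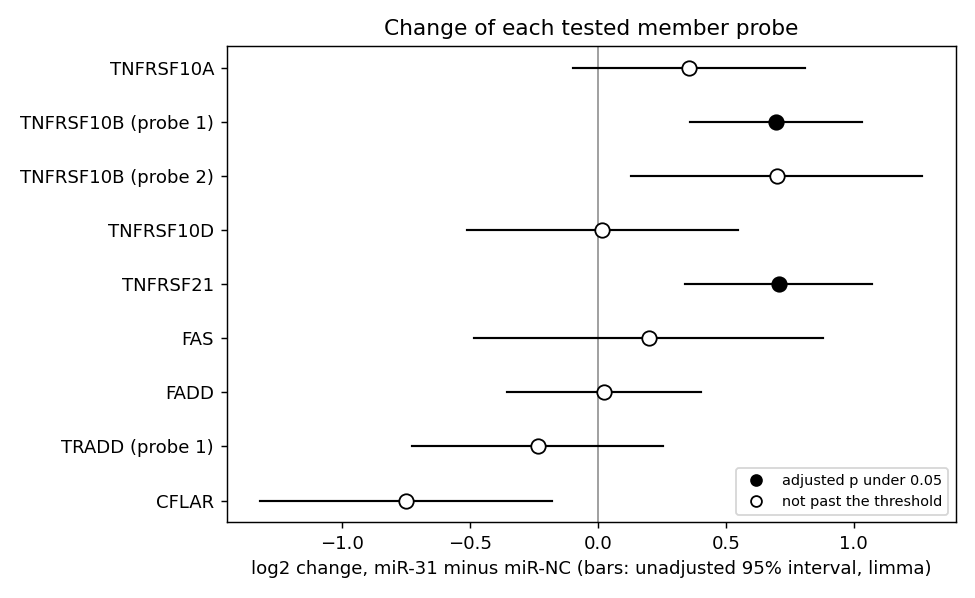
Log2 change from miR-NC to miR-31 (horizontal axis) of the 9 tested member probes, with unadjusted 95% intervals from limma; filled points are past the adjusted threshold. Only probe 1 of TNFRSF10B and TNFRSF21 are filled, at 0.70 and 0.71, and CFLAR lies at −0.75.

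The remaining receptors gave smaller values. TNFRSF10A, the other TRAIL receptor with a full death domain, had normalized log2 signals of 7.90 and 7.96 with miR-NC and of 8.34 and 8.23 with miR-31. The miR-31 arrays were higher on this scale, but the groups overlapped in the deposited intensities (361.5 and 291 against 294.7 and 365.7) and with arrays aligned on their medians (8.09 and 7.83 against 7.91 and 8.50). The log2 change of 0.36 ± 0.20 (SE) did not pass (limma adjusted p = 0.336), and its interval from −0.10 to 0.81 reaches the size of the TNFRSF10B change. TNFRSF10D is a decoy TRAIL receptor whose death domain is truncated. It read 7.20 and 7.13 on the normalized log2 scale with miR-NC, then 7.27 and 7.09 with miR-31, so the groups overlapped. The log2 change was 0.02 ± 0.24 (SE; limma adjusted p = 0.981), with an interval from −0.51 to 0.55. TNFRSF10A, TNFRSF10B and TNFRSF10D are neighbours of one cluster in the RefSeq gene order, together with TNFRSF10C, a decoy receptor that was detected on no array at 64.9 to 89.3 intensity units. Probe sequences were not used here, so cross-hybridisation among these related transcripts was not examined. Whether TNFRSF10B changed more than TNFRSF10A or TNFRSF10D was not tested.

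FAS, the receptor for FAS ligand, was close to background. Its probe had deposited intensities of 117.5 and 87.8 with miR-NC and 95.5 and 102.8 with miR-31, and it was detected on 1 array of each group. Normalized log2 signals overlapped, at 5.73 and 5.19 with miR-NC and 5.54 and 5.77 with miR-31. The log2 change was 0.20 ± 0.30 (SE; limma adjusted p = 0.766), and the interval from −0.48 to 0.88 spans a fall and a rise. The dim signal of this probe limits what the arrays could show for FAS.

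The adaptors did not pass the threshold. FADD, the link between death domains and caspases, had normalized log2 signals of 9.87 and 9.91 with miR-NC and 10.07 and 9.77 with miR-31, with the miR-NC arrays between the miR-31 arrays. Its log2 change was 0.02 ± 0.17 (SE; limma adjusted p = 0.958), with an interval from −0.36 to 0.40. TRADD, the adaptor of the TNF receptor complex, read 8.05 and 8.08 with miR-NC and 7.99 and 7.67 with miR-31 at its brighter probe. Both miR-31 arrays were lower on this scale, while the groups overlapped with arrays aligned on their medians, and the log2 change of −0.24 ± 0.22 (SE) did not pass (limma adjusted p = 0.588). The second TRADD probe was not detected on any array (34.7 to 48.4 intensity units).

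CASP8, the initiator caspase of the route, was not detected. Its 4 probes had deposited intensities of 55.6 to 75.1, 43.1 to 60.5, 36.9 to 53.6 and 32.9 to 47 units over the 4 arrays. All of these lie under the lowest signal of a detected probe on any array, and the smallest detection p of the 16 readings was 0.156, at the first probe on miR-31 replicate 2. The platform annotation pairs each of the 4 probes with a different CASP8 transcript. With no filter on dim probes, their log2 changes lay between −0.075 and 0.20, none past the threshold (smallest limma adjusted p = 0.442). CASP10, the related initiator caspase and the gene between CFLAR and CASP8 in the RefSeq gene order, was not detected either, at 57.2 to 82.6 intensity units.

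CFLAR, the third gene of that cluster, was measured on all 4 arrays. It encodes c-FLIP, which binds FADD and CASP8 and in its short forms blocks the activation of CASP8. Deposited intensities of 331.3 and 257.7 with miR-NC stood against 167.5 and 165.8 with miR-31, both miR-31 arrays lower before any normalization. The normalized log2 signals were 7.75 on both miR-NC arrays and 7.25 and 6.75 in miR-31, again without overlap. The log2 change was −0.75 ± 0.25 (SE) and did not pass (limma adjusted p = 0.12, unadjusted p = 0.0154), with an unadjusted 95% interval from −1.32 to −0.18. On this normalized scale the miR-31 arrays differed from each other by more than the miR-NC arrays did (SD 0.36 against 0.002, n = 2 each). In the deposited intensities, and with arrays aligned on their medians, the miR-NC arrays were the further apart. Without miR-31 replicate 1 the log2 change was −1.02 and without miR-31 replicate 2 it was −0.51. The groups were also apart with arrays aligned on their medians (7.94 and 7.60 against 6.83 and 7.08). The authors' normalized intensities went from 194.8 and 194 with miR-NC to 136.9 and 92.5 with miR-31. The platform annotation pairs the single CFLAR probe with 1 transcript. Probe sequences were not used here, so which of the gene's long and short isoforms it reads was not examined.

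**Figure D3:**
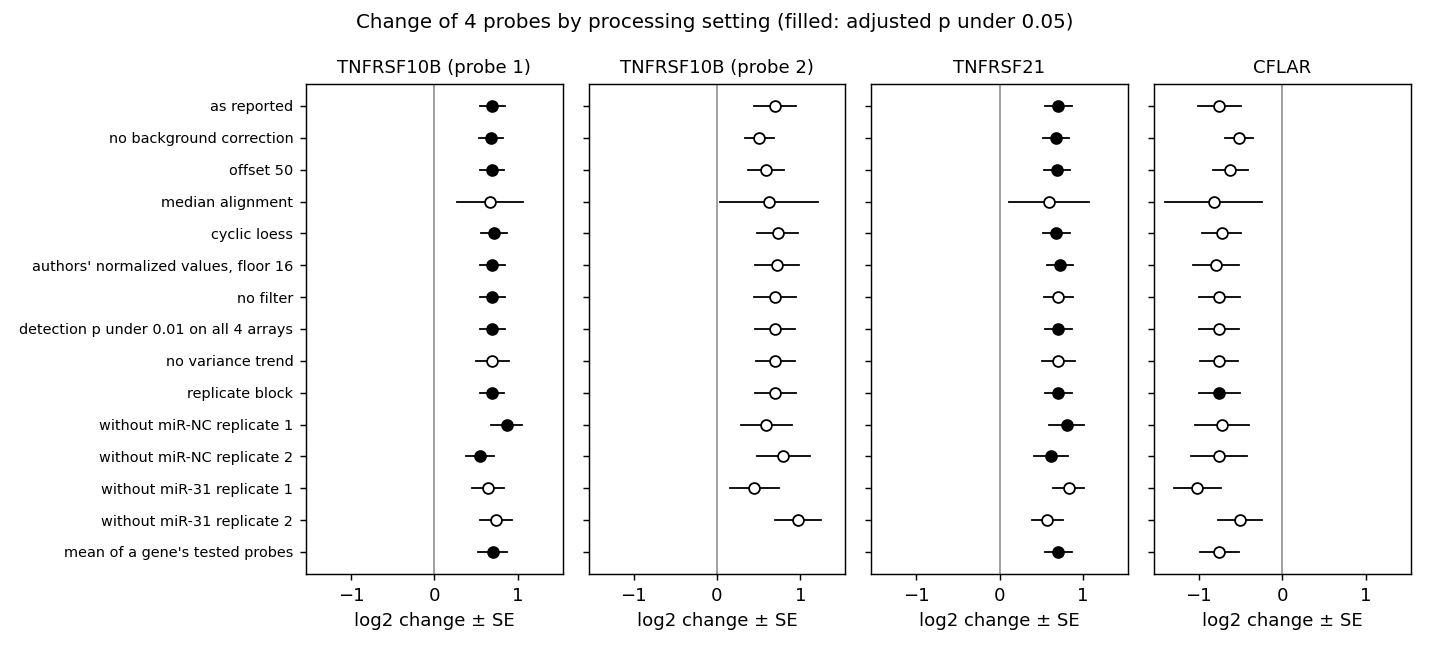
Log2 change ± SE (horizontal axis) of both detected TNFRSF10B probes, TNFRSF21 and CFLAR, as reported and under each processing alternative (rows); filled points are past the adjusted threshold. In the row that averages a gene's probes, the point under probe 1 of TNFRSF10B is the mean of both its tested probes. That mean is also counted among the calls of probe 1. All points of TNFRSF10B and TNFRSF21 lie above 0 and all points of CFLAR below 0, while the calls of probe 1 of TNFRSF10B held in 10 and those of TNFRSF21 in 9 of 14 alternatives.

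Ligands of these receptors were sparse in the data. TNFSF10, which encodes TRAIL, was not detected on any array, at 40.3 and 40.8 intensity units with miR-NC and 50.1 and 58.9 with miR-31. FASLG, TNF and TNFSF12 were not detected either. The 2 ligands tested, out of 6, did not pass: LTA, a TNF-like cytokine of lymphocytes, at 0.29 ± 0.27 and TNFSF15 at −0.23 ± 0.29 (log2 change ± SE; limma adjusted p = 0.585 and 0.713). Neither had an unadjusted p under 0.05. In the list of other TNF receptors and decoys, 7 of 10 genes were detected on no array, and 0 of the 3 tested genes passed in limma (1 at an unadjusted p under 0.05). TNFRSF1A, the main TNF receptor, stood 0.29 ± 0.20 higher in log2 signal and did not pass (SE; limma adjusted p = 0.442). TNFRSF12A, the TWEAK receptor, was close to background in the control cells. It was not detected on miR-NC replicate 1 (76.6 intensity units, detection p 0.526), barely on replicate 2 (99 units, detection p 0.048), and on both miR-31 arrays (101.2 and 168.6 units), through which it met the filter. Its log2 change of 1.09 ± 0.39 (SE) did not pass (limma adjusted p = 0.136) and has no firm control level behind it. With single arrays left out that change ranged from 0.53 without miR-31 replicate 2 to 1.71 without miR-31 replicate 1. Without miR-NC replicate 2, which leaves 1 control array at background and takes the spread from the miR-31 arrays, it was 1.43 (limma adjusted p = 0.0467).

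Genes that act at or below the receptor complex were tested in 4 further lists. Among all 6 lists, 45 of 76 genes were tested, 1 was higher and 1 lower (2 of 45), where 7.66% of the 10754 genes tested passed in either direction (2.43% higher, 5.24% lower). Their median log2 change was 0.01, against −0.02 for all genes. Of the 12 tested adaptors and regulators at the receptor, 0 passed in limma and 1 had an unadjusted p under 0.05 (median log2 change 0.01). The smallest p-values belonged to DAXX, a FAS-binding protein and histone chaperone (0.53 ± 0.19, SE; limma adjusted p = 0.153), and PEA15, a death effector domain protein that binds FADD (0.28 ± 0.14, SE; limma adjusted p = 0.297). Of the 10 tested kinases and partners downstream of the complex, 0 passed in limma and 1 had an unadjusted p under 0.05 (median log2 change −0.11). TAB1, an activating partner of the kinase encoded by MAP3K7, had a value of −0.58 ± 0.24 and MAP3K7 itself 0.33 ± 0.18 (log2 change ± SE; limma adjusted p = 0.19 and 0.322).

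Of the 9 tested genes among effector caspases and the mitochondrial link, CASP2 fell 2.05-fold and the other 8 did not pass (list median −0.09). In limma 3 of the 9 had an unadjusted p under 0.05. Besides CASP2 these were APAF1, lower at −0.81 ± 0.27, and DIABLO, higher at 0.36 ± 0.14 (log2 change ± SE, limma adjusted p = 0.117 and 0.156). CASP2 is a caspase with a long prodomain that acts upstream and is not an executioner. It read 10.43 and 10.51 with miR-NC and 9.41 and 9.46 with miR-31 on the normalized log2 scale, without overlap. The log2 change was −1.03 ± 0.15 (SE; limma adjusted p = 0.00757), and its second tested probe also fell (−1.35 ± 0.23, SE; limma adjusted p = 0.0124). Among 9 tested NF-kappaB target genes, CXCL8, the chemokine interleukin-8, rose 3.17-fold and the other 8 did not pass (list median 0.30). In limma 2 of the 9 had an unadjusted p under 0.05, CXCL8 and NFKBIA (log2 change 0.33 ± 0.14, SE, limma adjusted p = 0.208). CXCL8 read 6.50 and 6.68 with miR-NC and 8.24 and 8.26 with miR-31 on that scale, again without overlap. Its log2 change was 1.66 ± 0.23 (SE; limma adjusted p = 0.00547), while the other CXCL8 probe missed the threshold at 1.05 ± 0.27 (SE; limma adjusted p = 0.052). Without miR-31 replicate 1 or 2 the log2 changes were −0.997 and −1.06 for CASP2 and 1.69 and 1.67 for CXCL8, and neither gene passed (limma adjusted p = 0.093 and 0.0983 for both). With median alignment CASP2 stood at −1.15 and CXCL8 at 1.60, and neither passed (limma adjusted p = 0.593 and 0.276); without the variance trend CASP2 did not pass (limma adjusted p = 0.0524).

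**Figure D4:**
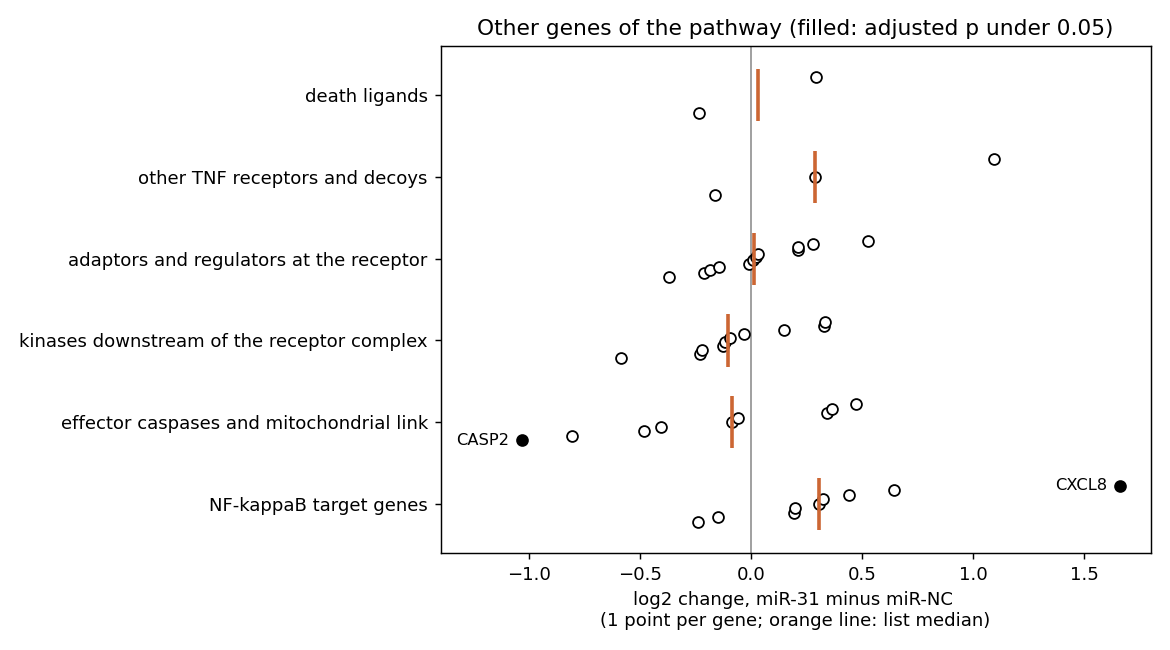
Log2 change from miR-NC to miR-31 (horizontal axis) of the 45 tested genes in 6 lists around the death receptors, 1 point per gene, with the list median as an orange line. CASP2 at −1.03 and CXCL8 at 1.66 are the filled points past the threshold; the list medians lie between −0.11 and 0.30.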

How the data were processed

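Both deposited tables were used. The first holds, per the file headers, non-normalized intensity for each probe; the submitters' processing notes name BeadStudio, with no version or settings given in the sources used here. The deposited detection score runs from 0 (dim) to 1 (bright), although the header calls it a p-value, so 1 minus it was taken as the detection p. The authors' second table holds linear, background-subtracted intensity normalized between arrays by an unstated method, and served as an alternative.

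With limma 3.58.1 in R 4.3.3, background was estimated from detection p by a normal-exponential model, an offset of 16 was added, and values were quantile-normalized and put on the log2 scale. Probes detected (p under 0.05) on at least 2 of 4 arrays were tested: 18354 of 47231. Differences were fitted by lmFit and eBayes with an intensity trend, two-sided, and adjusted by Benjamini-Hochberg over all tested probes; there were 2 residual and 7.19 prior degrees of freedom. The exact permutation of 2 against 2 arrays cannot go below 0.333. The number of arrays limits the precision. The fit was also run on simulated data with planted changes. These were drawn with the variances that the fit itself assumes, so the run cannot test those assumptions.

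Of the probes, 30113 had 1 symbol in the platform annotation, 8 several and 17110 none; 30074 were updated through Entrez identifiers to RefSeq symbols. In lists, the tested probe with the highest mean stood for its gene. Named were all members, list genes past the threshold and otherwise up to 2 with the smallest p per list; other genes were named after their values were seen. Members and lists were chosen with earlier results of these data known.

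As alternatives, the background step was left out or its offset set to 50; the quantile step was replaced by median alignment or cyclic loess; the authors' values were used with a floor of 16; the filter was dropped, or tightened to a detection p of 0.01 on all 4 arrays; the trend was dropped; replicate number was added as a block; arrays were left out in turn, keeping the tested probes; and a gene's probes were averaged.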

Additional observations from a re-analysis of the deposited data

How the results depend on the processing

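The count of 2 member probes past the threshold, both higher, was the same under 8 of the 14 alternatives and was 3 with the replicate block. Where a gene's probes were averaged, genes were counted in place of probes. The count was 0 with median alignment (limma; 0 of 9 at an unadjusted p under 0.05), 0 without the variance trend (4 of 9) and 1 with no filter, where TNFRSF21 had adjusted p = 0.0711. Leaving out single arrays gave 0 to 2, with 0 without miR-31 replicate 1 and 0 without miR-31 replicate 2 (3 of 9 at an unadjusted p under 0.05 in each). Over all tested probes, 1132 passed (34% of them higher). Median alignment gave 106 (57.5% higher), no variance trend 359 (20.1%) and the replicate block 2536 (47.6%). Leaving out single arrays gave 0 to 2057, with 2057 without miR-NC replicate 2 (54.4% higher) and 0 without either miR-31 array (3033 and 2748 at an unadjusted p under 0.05). Of the 2 pathway list genes past the threshold, median alignment left 0 (limma; 3 at an unadjusted p under 0.05), no variance trend 1, and leaving out single arrays 0 to 3, with 0 without either miR-31 array (5 and 6 at an unadjusted p under 0.05); their median moved by less than the spread between replicates. Values near 0 changed sign: with median alignment TNFRSF10D stood at −0.050 and FADD at −0.071. With single arrays left out FAS ranged from −0.072 to 0.47, TNFRSF10D from −0.075 to 0.11 and FADD from −0.12 to 0.18. The other 6 member probes kept their sign under every alternative run. The causes of these changes were not tested. The labels number the repeats in both groups, and the deviations of same-numbered arrays correlated at 0.22 over the tested probes, which with 2 pairs does not show pairing. With the replicate block CFLAR passed (adjusted p = 0.0485), as did TNFRSF12A (adjusted p = 0.0244), and TNFRSF10B and TNFRSF21 kept their calls (adjusted p = 0.00376 and 0.00844). Signal over background limits FAS, and no change can be read for CASP8.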
